A study of Rattus norvegicus with 60 samples.

Results

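The comparison described here is the step between the 2 highest doses in a rat lung inhalation study of multi-walled carbon nanotubes (MWCNT), which are thin fibres of carbon that reach the deep lung. For each gene it asks whether the MWCNT effect at a cumulative dose of 180 mg/m3 was larger or smaller than the effect at 90 mg/m3, or was seen at 180 mg/m3 alone. MWCNT_180 were male Fischer 344 rats, 3 months old, that inhaled MWCNT in whole-body chambers for 6 hours a day on 3 days to a cumulative 180 mg/m3, and air_180 were rats of the same set that breathed filtered air. MWCNT_090 inhaled MWCNT to a cumulative 90 mg/m3, and air_090 were the filtered-air rats of that second set. Lungs of all 4 groups were taken 1 day after exposure ended. Libraries were picked by group, and of the 24 in these groups the 3 that carry an outlier label from the submitters were left out, so 21 of the 60 libraries of the series were used: 5 MWCNT_180, 6 air_180, 4 MWCNT_090 and 6 air_090. Each dose was a separate run with its own air rats, so dose and run cannot be told apart. Rats shared cages, and no label ties a rat to a cage.

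Lung clearance of long fibres falls to alveolar macrophages, which engulf particles and call in monocytes and neutrophils through chemokines such as CCL2 and CXCL1. Transcription factors of the NF-kB family drive many of these genes, and feedback inhibitors made under NF-kB limit them. Injury also sets off division of immune and epithelial cells, surfactant work in alveolar type 2 cells and renewal of multiciliated airway cells.

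Total counts per library were 8.1 to 15.1, in units of 1000000, and 15370 genes were tested. Lung cell markers were present in all 4 groups, with the alveolar type 2 surfactant gene Sftpc averaging 10030 counts per 1000000 counts (CPM). Among the defining markers, the cardiac muscle gene Nppa was at 0 in all 21 libraries and the macrophage receptor gene Marco averaged 0.0149 CPM, whereas the macrophage integrin gene Itgax averaged 64.8 CPM. A list of liver genes took 0.034% to 0.0673% of the counts in the 21 libraries. One library, air_090 replicate 6, stood apart in interferon genes, and the results on those genes are also given without it. In bulk lung RNA, fewer cells of a type and less RNA per cell cannot be told apart.

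One gene, Serpinb10, passed the test of the difference between the 2 effects (edgeR's quasi-likelihood test with Benjamini-Hochberg adjustment), which is 0.00651% of the 15370 genes. Serpinb10 encodes bomapin, an intracellular serine protease inhibitor described in human bone marrow and myeloid cells. Its level was 9.03, 9.01, 8.63, 6.53 and 6.36 CPM in MWCNT_180, against 31.2, 32.5, 31.9, 30.5, 37 and 32.1 CPM in air_180. It was 12.1, 12.0, 13.8 and 13.8 CPM in MWCNT_090, against 28.5, 34, 27.4, 30.2, 31.8 and 31.3 CPM in air_090. The exposed rats of both sets lay below all air rats, all MWCNT_180 libraries lay below all MWCNT_090 libraries, and the air groups overlapped. Serpinb10 fell by 2.04 on the log2 scale at 180 mg/m3 (SE 0.09, adjusted p = 6.3e-14) and by 1.24 at 90 mg/m3 (SE 0.09, adjusted p = 8.7e-10). The difference of effects was -0.81 ± 0.13 log2 (SE, 95% interval -1.07 to -0.54, adjusted p = 0.0243). Leaving out any 1 of the 21 libraries kept the difference between -0.86 and -0.73, but the call was lost without air_090 replicates 1, 3 or 4, MWCNT_090 replicates 3 or 4, or MWCNT_180 replicates 5 or 6, with adjusted p from 0.056 to 0.155 in those cases. It was also lost in a model of 53 libraries and 10 groups (-0.80, adjusted p = 0.329) and with the 3 outlier-labelled libraries kept (-0.32, adjusted p = 0.75).

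In the 3 lower-dose sets the mean level of Serpinb10 was 27.2, 21.7 and 20 CPM at 11.25, 22.5 and 45 mg/m3, and air rats of the same 3 sets had 28.7, 29.3 and 33.9 CPM. Each of the 5 sets was its own run, and the exposed means were lower at each higher dose. The 250 bases before the start of Serpinb10 (RefSeq, build GRCr8, chr13:24067803-24068052, plus strand) are shown because this is the only gene called for the difference.

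Serpinb10: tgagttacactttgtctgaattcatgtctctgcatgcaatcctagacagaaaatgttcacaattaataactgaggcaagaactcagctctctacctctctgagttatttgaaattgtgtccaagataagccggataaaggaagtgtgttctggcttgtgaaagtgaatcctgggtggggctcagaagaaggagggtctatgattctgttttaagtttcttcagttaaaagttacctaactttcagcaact

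These letters hold 0 matches, on either strand, to the interferon element (TTTC, any 2 bases, TTTC), to the NF-kB element (GGGA, any 2 bases, TTCC) or to the E2F element TTTNNCGC.

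**Figure D1:**
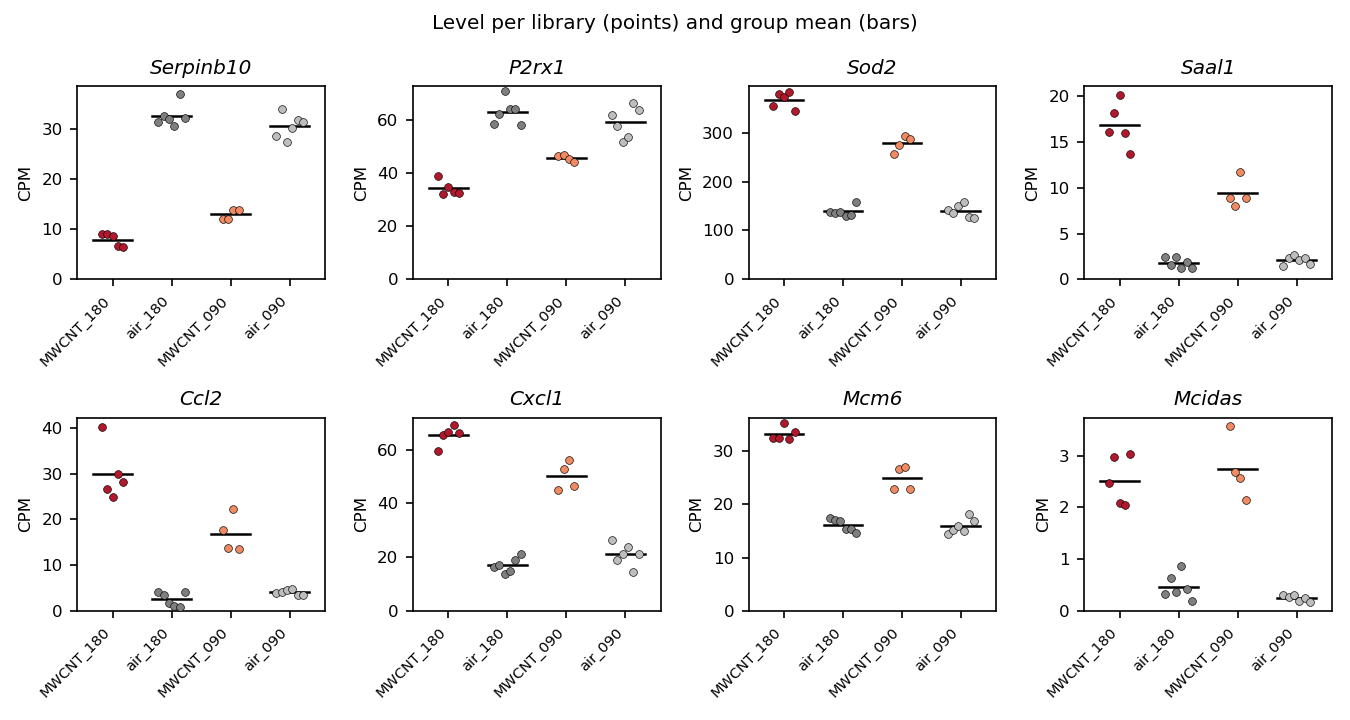
Level in CPM (linear axis from 0) of 8 genes in each of the 21 libraries, with MWCNT_180, air_180, MWCNT_090 and air_090 along the horizontal axis; bars are group means. MWCNT_180 libraries lie below those of MWCNT_090 for Serpinb10 and P2rx1 and above them for Sod2, Saal1, Ccl2, Cxcl1 and Mcm6, while Mcidas overlaps. The exposed groups did not overlap for 5.24% of all genes. Of the 8 genes, Serpinb10 alone passed the test of the difference of effects.

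The responses at both doses were broad and went the same way. At 180 mg/m3, 3902 genes were called (25.4%), of which 2082 rose (13.5%) and 1820 fell (11.8%). At 90 mg/m3, 1914 genes were called (12.5%), with 1175 higher (7.64%) and 739 lower (4.81%). The counts of called genes in each list below stand against these shares of all genes. Of the 1605 genes called at both doses, all 1605 had the same sign, and 1123 (70%) had the larger effect at 180 mg/m3. A line through their effects had a slope of 1.18 (180 on 90) and a correlation across genes of 0.951, where genes are not independent replicates. No gene was called in opposite directions.

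A response at the top dose alone was not shown for any gene. A total of 2297 genes were called at 180 mg/m3 and not at 90 mg/m3, and 0 of them passed the test of the difference, while 420 (18.3%) had an unadjusted p under 0.05 in it. Of the 2297, 94.3% had the same sign at 90 mg/m3, and their median absolute effect was 0.27 log2 at 180 mg/m3 and 0.13 at 90 mg/m3. Another 309 genes were called at 90 mg/m3 and not at 180 mg/m3, again with 0 calls of the difference, 57 unadjusted p under 0.05 and the same sign in 94.2%. Over all genes, 978 (6.36%) had an unadjusted p under 0.05 for the difference.

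The data bounded the difference closely for modest effects and loosely for large ones. Among the 4211 genes called at either dose, the 95% interval of the difference lay within 1.5-fold either way for 72.4%. Among the 459 of these with more than a 2-fold effect at either dose it did so for 26, and within 2-fold for 184. Of these 459 genes, 126 had an unadjusted p under 0.05 with the larger effect at 180 mg/m3 and 13 with the smaller. The median width of the 95% interval was 0.51 log2 over all genes.

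**Figure D2:**
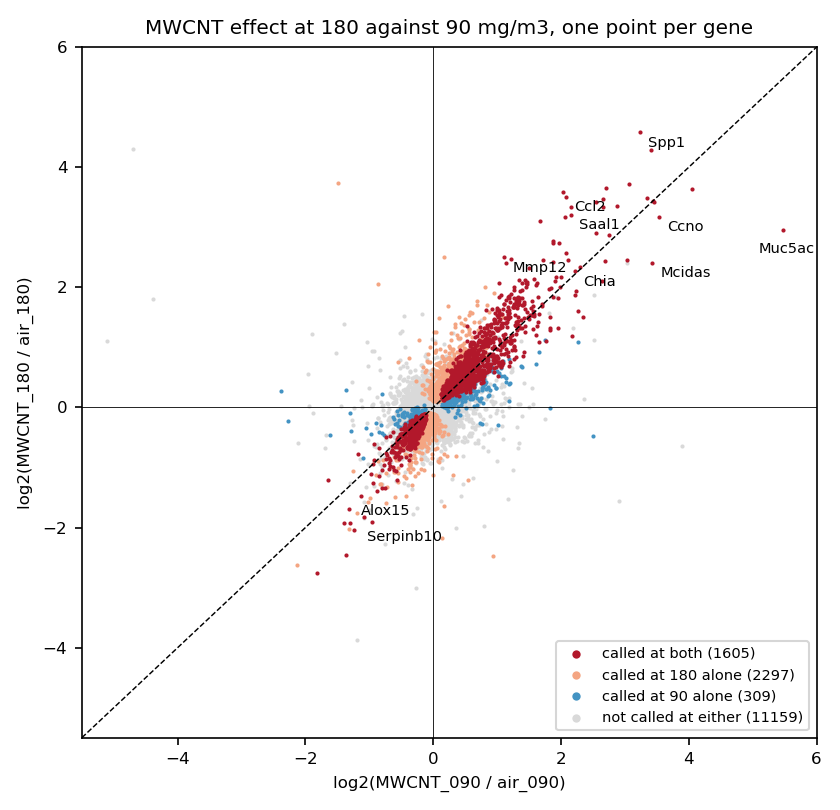
Each point is 1 of 15370 genes, with the MWCNT effect at 180 mg/m3 (log2, vertical) against the effect at 90 mg/m3 (log2, horizontal); the dashed line marks equal effects. The 1605 genes called at both doses lie above 0 at both doses or below 0 at both, and Serpinb10 is below the line.

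Set against each other without their air rats, MWCNT_180 and MWCNT_090 differed in 34 genes (0.221%), 18 higher and 16 lower in MWCNT_180. The count rests on single libraries: it was 3 without MWCNT_090 replicate 1, 13 without MWCNT_090 replicate 2, 21 without MWCNT_180 replicate 4, 16 without MWCNT_180 replicate 5 and 64 without air_180 replicate 6, and it was 174 with DESeq2 and 206 with limma voom. All 34 had the same sign of effect at both doses, 32 were also called at 180 mg/m3 and 25 at 90 mg/m3, and 24 had an unadjusted p under 0.05 for the difference of effects. In 33 of the 34 the exposed groups did not overlap (5.24% of all genes tested). The 34 were picked by a test of these same libraries, so their separation adds no support.

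Several of the 34 had air groups at nearly equal levels. Sod2, the mitochondrial superoxide dismutase and an NF-kB target, was at 354, 379, 374, 383 and 345 CPM in MWCNT_180, against 138, 136, 138, 130, 132 and 158.6 CPM in air_180. It was at 256, 276, 293 and 287 CPM in MWCNT_090, against 143, 136, 150, 158.3, 128 and 125 CPM in air_090. Every exposed rat lay above every air rat, and the MWCNT_180 rats lay above the MWCNT_090 rats. Its effect was 1.40 log2 at 180 mg/m3 and 0.99 at 90 mg/m3, and the difference of 0.41 ± 0.09 (SE) had an adjusted p of 0.247.

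P2rx1, an ATP-gated cation channel of smooth muscle and platelets, went the other way. Its level was 39, 32.0, 34.8, 33 and 32.3 CPM in MWCNT_180, with 58.1 to 70.7 CPM in air_180 (median 63). It was 46.4, 46.7, 45.2 and 43.9 CPM in MWCNT_090, with 51.5 to 66.2 CPM in air_090 (median 59.8). The difference of effects was -0.50 ± 0.10 log2 (SE, adjusted p = 0.124). DESeq2 on the same 21 libraries called P2rx1 and Sod2, with adjusted p of 0.0077 and 0.0153, and limma voom called both as well, with adjusted p of 0.0216 and 0.0314.

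Saal1, a gene named for its likeness to serum amyloid A, was at 16.1, 18.1, 20.2, 16 and 13.7 CPM in MWCNT_180, against 1.24 to 2.45 CPM in air_180. It was at 8.87, 8.06, 11.7 and 8.91 CPM in MWCNT_090, against 1.5 to 2.68 CPM in air_090. The difference of effects was 1.05 ± 0.25 log2 (SE, adjusted p = 0.457). Rgs2, which shuts off G protein signals, rose by 0.75 log2 at 180 mg/m3 and had an effect of 0.11 at 90 mg/m3 that did not pass.

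Genes lower in MWCNT_180 than in MWCNT_090 included structural and metabolic genes. Hsd11b2, which inactivates glucocorticoids, was at 3.54 to 4.70 CPM in MWCNT_180 and 6.45 to 7.61 CPM in MWCNT_090, with effects of -1.22 and -0.56 log2. The elastin gene Eln fell by 0.60 log2 at 180 mg/m3 and by 0.25 at 90 mg/m3, which was not called without MWCNT_090 replicate 2 (adjusted p = 0.0584). Fgfr4, a growth factor receptor (effects -0.54 and -0.28), Slc7a10, an amino acid transporter (-0.69 and -0.37), and Mamdc2 (-0.67 and -0.36) were further members of this group.

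One of the 34 genes was also called between the air groups. Col1a1, a chain of type I collagen, was at 397, 423, 456, 396 and 473 CPM in MWCNT_180 and at 421 to 499 CPM in air_180. It was at 634, 555, 556 and 532 CPM in MWCNT_090 and at 513 to 665 CPM in air_090. Within each set exposed and air rats overlapped, and the sets did not. The exposed groups differed by -0.41 log2 (adjusted p = 0.0117) and the air groups by -0.38 (adjusted p = 0.0128), and the difference of effects was -0.03 ± 0.10. The matrix gene Hmcn2 had an exposed difference of -1.20 and an air difference of -0.61 log2.

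**Figure D3:**
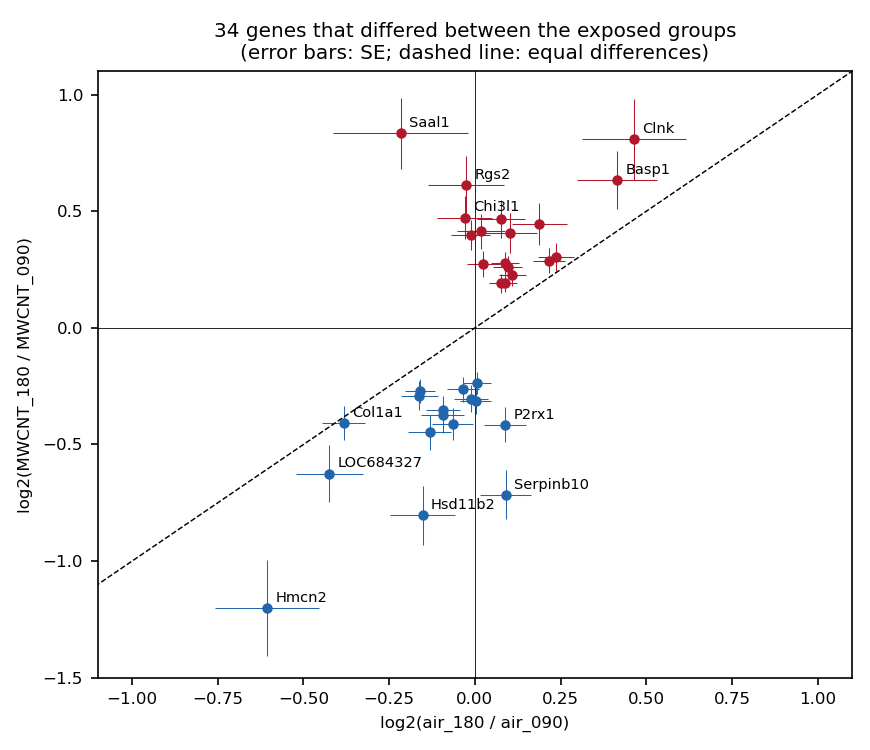
For the 34 genes that differed between the exposed groups (3 to 64 with 1 library left out), the log2 ratio of MWCNT_180 to MWCNT_090 (vertical) is plotted against the log2 ratio of air_180 to air_090 (horizontal), with standard errors. Points on the dashed line, such as Col1a1, differed equally in exposed and air rats; Serpinb10 and P2rx1 lie far from it.

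The air groups differed in 4 genes (0.026%), all lower in air_180: Col1a1, the RNA gene Rmrp, LOC310926 and LOC100361083. LOC310926 was at 9.08 to 18.6 CPM in MWCNT_180, 6.59 to 12.7 CPM in air_180 and 7.41 to 16.5 CPM in MWCNT_090, against 24.5 to 33.8 CPM in air_090. Air_090 alone stood apart, and its difference of effects of 1.64 ± 0.30 log2 (SE, adjusted p = 0.124) was called by DESeq2 and limma voom (adjusted p = 5.4e-05 and 0.0314). With both air groups as a single control, 20 genes were called for the step, which then equals the ratio of the exposed groups.

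Most monocyte and neutrophil chemokine genes rose at both doses, with wide intervals on the difference of effects. At 180 mg/m3, 3 of 6 type 2, 3 of 5 interferon-induced and 2 of 11 homeostatic chemokine genes rose, with 1 interferon-induced and 2 homeostatic genes lower, and at 90 mg/m3 5, 2 and 1 rose and 0 fell. The monocyte chemokine gene Ccl2 was at 40.3, 26.7, 25, 29.9 and 28.1 CPM in MWCNT_180, against 4.09, 3.37, 1.79, 1.15, 0.927 and 4.13 CPM in air_180. It was at 17.7, 13.7, 22.3 and 13.4 CPM in MWCNT_090, against 3.99, 4, 4.56, 4.67, 3.45 and 3.39 CPM in air_090. The exposed groups did not overlap, and 4 of the 6 air_180 rats lay below all air_090 rats. The effect was 3.51 ± 0.25 log2 at 180 mg/m3 and 2.08 ± 0.25 at 90 mg/m3, the difference was 1.43 ± 0.36 (SE, adjusted p = 0.517), and the air groups differed by -0.61 log2. All 10 tested monocyte chemokine and receptor genes had a positive difference, against 48.8% of all genes, with a median of 0.29 log2 (all genes -0.0039), and 4 had an unadjusted p under 0.05. All 10 rose at 180 mg/m3 and 9 rose at 90 mg/m3.

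Of 7 tested neutrophil chemokine genes, 6 rose at 180 mg/m3 and 5 at 90 mg/m3, and 6 had a positive difference (median 0.31). Cxcl1 was at 59.4, 65.6, 66.6, 69.3 and 66.2 CPM in MWCNT_180, against 13.7 to 21 CPM in air_180, and at 45.0, 53, 56.1 and 46.5 CPM in MWCNT_090, against 14.6 to 26.4 CPM in air_090. Its difference of effects was 0.69 ± 0.16 log2 (SE, adjusted p = 0.457), and it was called without air_090 replicate 5 (0.78, adjusted p = 0.0353). Cxcl6, another neutrophil attractant, had effects of 3.16 and 2.07 log2, but its air level differed between sets by -0.87. The interleukin gene Il1b rose by 1.02 and 0.82 log2, with a difference of 0.20 (95% interval -0.27 to 0.67). The T cell and dendritic cell chemokine gene Ccl22 was at 7.55 to 12.7 CPM in MWCNT_180 and 6.18 to 6.76 CPM in MWCNT_090, with a difference of effects of 0.95 ± 0.28 log2 (SE, adjusted p = 0.601). Over the 13 neutrophil markers, the summed level ran from 309.6 to 390.8 CPM in MWCNT_180, 172.6 to 270.3 in air_180, 263.9 to 290.7 in MWCNT_090 and 170.1 to 254.7 in air_090. Their part in the chemokine values was not tested.

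Of 18 tested feedback and adhesion genes under NF-kB, 12 rose at 180 mg/m3 and 11 at 90 mg/m3, 0 fell at either dose, and the median difference was 0.13. Zc3h12a, an RNase that degrades inflammatory mRNAs, rose by 1.09 log2 at 180 mg/m3 and 0.59 at 90 mg/m3 (difference 0.50 ± 0.12, adjusted p = 0.457), with its air level lower by 0.28 in set 180. Nfkbiz rose by 0.65 at 180 mg/m3 and had 0.24 at 90 mg/m3, which did not pass but was called by limma voom (adjusted p = 0.0437) and without air_090 replicate 4 (adjusted p = 0.0454). Nfkbia, the inhibitor that holds NF-kB in the cytoplasm, had -0.56 and 0.37, neither of which passed, but the effect at 180 mg/m3 was called by DESeq2 (-0.56, adjusted p = 0.0378) and without air_180 replicate 6 (-0.70, adjusted p = 0.0125).

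The NF-kB letters, searched on both strands of the 250 bases before each RefSeq start, were found in 2 of the 6 neutrophil chemokine genes with a promoter in the table, in 1 of 6 monocyte genes, in 4 of 14 feedback genes and in 1.36% of the 10485 tested genes with a promoter. Windows show where these letters lie in 4 chemokine and feedback genes (GRCr8; capitals mark the motif): Cxcl1 at chr14:17479376-17479425, minus strand, Cxcl6 at chr14:17596476-17596525, minus strand, Ccl7 at chr10:67514016-67514065, plus strand, and Nfkbiz at chr11:58251688-58251720, plus strand.
Cxcl1: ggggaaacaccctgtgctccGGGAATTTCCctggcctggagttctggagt
Cxcl6: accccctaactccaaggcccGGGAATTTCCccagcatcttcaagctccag
Ccl7: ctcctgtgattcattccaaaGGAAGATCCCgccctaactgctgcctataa
Nfkbiz: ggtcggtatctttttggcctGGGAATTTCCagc

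A match describes the letters only. Ccl7, a second monocyte chemokine gene, had effects of 3.34 and 2.65 log2 and a difference of 0.69 (95% interval -0.16 to 1.54).

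Of 19 genes known from lipid-laden and scar macrophages, 9 rose and 3 fell at 180 mg/m3, and 5 rose and 2 fell at 90 mg/m3. Spp1, which encodes osteopontin, was at 89.1 to 136 CPM in the 5 MWCNT_180 rats, against 2.01 to 8.55 CPM in air_180, and at 57.0, 73.6, 75.5 and 73.3 CPM in MWCNT_090, against 4.26 to 16 CPM in air_090. The macrophage elastase gene Mmp12 was at 58.4 to 67.1 CPM in MWCNT_180, against 5.92 to 16.2 CPM in air_180, and at 37.8 to 47.0 CPM in MWCNT_090, against 8.96 to 29 CPM in air_090. For both genes the exposed groups did not overlap and the air groups did. The differences of effects were 1.35 ± 0.43 log2 for Spp1 and 1.38 ± 0.35 for Mmp12, with adjusted p of 0.617 and 0.517, and the air levels differed by -0.76 and -0.80. Of the 19 genes, 17 had a positive difference (median 0.18, 2 with an unadjusted p under 0.05).

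Of 12 alternative macrophage genes, 10 had a positive difference of effects (median 0.23), as had 7 of 13 alveolar macrophage genes (median 0.06). Of the 12, 6 rose and 1 fell at 180 mg/m3, and 4 rose and 0 fell at 90 mg/m3. Chia, the acidic chitinase, was at 488 to 727 CPM in MWCNT_180 and 534 to 671 CPM in MWCNT_090. Its effects were 2.27 and 2.21 log2, and the difference was 0.05 (95% interval -0.37 to 0.47). Retnla, a marker of alternatively activated macrophages in rodents, had 3.35 and 2.87, with a difference of 0.48 (95% interval -0.43 to 1.38). Of 13 alveolar macrophage genes, 3 rose and 6 fell at 180 mg/m3, and 1 rose and 5 fell at 90 mg/m3. The shares of all genes were 13.5% higher and 11.8% lower at 180 mg/m3, and 7.64% higher and 4.81% lower at 90 mg/m3. Itgax, an integrin of alveolar macrophages and dendritic cells, rose by 0.85 and 0.50 log2 (difference 0.35 ± 0.12, adjusted p = 0.641). Cidec, a lipid droplet gene, fell by 1.92 and 0.97, at 0.416 to 0.816 CPM in MWCNT_180 and 0.448 to 0.918 CPM in MWCNT_090. Its call at 90 mg/m3 was lost without air_090 replicates 2, 5 or 6 or MWCNT_090 replicates 1, 2 or 4, with adjusted p from 0.0507 to 0.133.

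Of 17 monocyte and dendritic cell genes, 9 rose at 180 mg/m3 and 6 at 90 mg/m3 and 0 fell, with a median difference of 0.15 log2. Irf8, a transcription factor of these cells, rose by 0.72 and 0.50, and Clec9a, a receptor of cross-presenting dendritic cells, by 1.15 and 0.83. Xcr1, the chemokine receptor of the same cells, rose by 1.16 at 180 mg/m3 and had 0.42 at 90 mg/m3, with an air difference of -0.41, and the effect at 90 mg/m3 was called without air_090 replicate 4 (0.50, adjusted p = 0.0486). Of 10 MHC class II genes, 7 rose at 180 mg/m3 and 4 at 90 mg/m3, with a median difference of 0.18. Ciita, the master regulator of these genes, rose by 0.62 and 0.41. Of 23 T and NK cell genes, 2 rose and 6 fell at 180 mg/m3, and 0 rose and 1 fell at 90 mg/m3. Over all genes, 13.5% rose and 11.8% fell at 180 mg/m3, and 7.64% rose and 4.81% fell at 90 mg/m3.

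Of 24 complement genes, 15 rose and 1 fell at 180 mg/m3, and 13 rose and 1 fell at 90 mg/m3, with a median difference of 0.15. Of 17 acute phase and defence genes, 15 rose at 180 mg/m3 and 13 at 90 mg/m3, 16 had a positive difference (median 0.27), and in 10 all MWCNT_180 libraries lay above all MWCNT_090 libraries, against 2.95% of all genes. The summed list was 28230 to 31550 CPM in MWCNT_180, 18580 to 28530 in air_180, 20160 to 25160 in MWCNT_090 and 18640 to 25400 in air_090. Air_180 replicate 6, at 28530 CPM, lay within the range of MWCNT_180, and MWCNT_090 lay within that of air_090. Complement C3 was at 1040, 1257, 1299, 1327 and 1337 CPM in MWCNT_180, against 351 to 478 CPM in air_180, and at 849, 918, 866 and 988 CPM in MWCNT_090, against 368 to 444 CPM in air_090. The chitinase-like gene Chi3l1 was at 555 to 610 CPM in MWCNT_180, against 140 to 206 CPM in air_180, and at 371 to 455 CPM in MWCNT_090, against 140 to 186 CPM in air_090. The differences were 0.39 ± 0.11 log2 for C3 and 0.50 ± 0.12 for Chi3l1 (adjusted p = 0.517 and 0.509). Lcn2, an iron-binding defence protein, had effects of 2.57 and 2.07.

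Cell division genes rose at both doses, with larger median effects at 180 mg/m3. Mcm6, a subunit of the replication helicase, was at 32.4, 32.5, 35.3, 32.4 and 33.6 CPM in MWCNT_180, against 14.5 to 17.4 CPM in air_180, and at 23.0, 26.6, 27.1 and 22.9 CPM in MWCNT_090, against 14.4 to 18.1 CPM in air_090. Exposed and air rats separated fully, and so did the exposed groups. Its effects were 1.04 and 0.65 log2 and the difference was 0.40 ± 0.10 (SE, adjusted p = 0.517). Of 30 replication genes, 28 rose at 180 mg/m3 and 22 at 90 mg/m3, 26 had a positive difference (median 0.26), 11 had an unadjusted p under 0.05, and in 10 all MWCNT_180 libraries lay above all of MWCNT_090 (2.95% of all genes). The summed replication list was 566 to 594.5 CPM in MWCNT_180, 350.7 to 404.7 in air_180, 464.8 to 505.9 in MWCNT_090 and 354 to 385.2 in air_090.

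Of 30 mitosis genes, 30 rose at 180 mg/m3 and 29 at 90 mg/m3, 23 had a positive difference (median 0.27), and 11 had an unadjusted p under 0.05. Ccna2, cyclin A2, rose by 1.84 and 1.03 log2 (difference 0.80 ± 0.20, adjusted p = 0.457). The proliferation marker gene Mki67 was at 40.8 to 50.1 CPM in MWCNT_180 and 32.0 to 37.4 CPM in MWCNT_090, with a difference of 0.42 ± 0.16 log2. The summed mitosis list overlapped between the exposed groups, at 552.5 to 612.6 CPM in MWCNT_180 and 517.6 to 567 CPM in MWCNT_090. The E2F letters TTTNNCGC were present before 7 of 24 replication genes and 3 of 25 mitosis genes, against 6.72% of genes tested, and are shown for Mcm5 at chr19:13488580-13488627, plus strand, and Mcm6 at chr13:42404464-42404511, minus strand, since these 2 helicase genes rose at both doses (capitals mark the motif).
Mcm5: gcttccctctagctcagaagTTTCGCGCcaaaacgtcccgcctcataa
Mcm6: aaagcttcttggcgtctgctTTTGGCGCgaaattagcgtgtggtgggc

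Of 26 cholesterol synthesis genes, 21 rose and 1 fell at 180 mg/m3, 16 rose and 1 fell at 90 mg/m3, 24 had a positive difference with a median of 0.20 log2, and the 95% interval lay within 1.5-fold for 22. The summed list overlapped between exposed and air rats in both sets. It was 4289 to 4907 CPM in MWCNT_180, 3510 to 4759 in air_180, 3555 to 4276 in MWCNT_090 and 3135 to 4383 in air_090. Hmgcs1, which makes the precursor of mevalonate, rose by 0.96 and 0.71. Its difference was 0.25 (95% interval -0.04 to 0.55).

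The differences of effects of interferon response genes rested in part on air_090 replicate 6. Of 37 tested genes, 35 had a positive difference with a median of 0.44 log2, and 13 had an unadjusted p under 0.05. Of the 37, 4 rose at 180 mg/m3 and 3 at 90 mg/m3, while 13.5% and 7.64% of all genes did so. The median effect was 0.17 at 180 mg/m3 and -0.24 at 90 mg/m3, and the median difference between the air groups was -0.27. One library stood out: the summed list was 2545 to 3262 CPM in MWCNT_180, 2545 to 3230 in air_180 and 2548 to 3011 in MWCNT_090, but 4809 in air_090 replicate 6 against 2695 to 3012 in the other 5 air_090 rats. Without that library 34 of the 37 differences were still positive. Their median was 0.23, below that of monocyte chemokines (0.32) and acute phase genes (0.31). The median effect at 90 mg/m3 was then -0.08 and the air difference was -0.08, with 8 genes at an unadjusted p under 0.05 for the difference of effects. The genes with the smallest p were Cxcl9, an interferon-gamma-induced chemokine gene (difference 0.74 ± 0.23), Psmb8, an immunoproteasome subunit (0.28 ± 0.10), and Parp14 (0.48 ± 0.19), with adjusted p of 0.601, 0.667 and 0.707. Without air_090 replicate 6 these differences were 0.74, 0.23 and 0.33, and Parp14 was then called at 180 mg/m3 (0.29, adjusted p = 0.0151). Cxcl10, another interferon-induced chemokine gene, rose at both doses, by 1.82 and 1.38, or 1.81 and 1.49 without that library.

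The interferon element letters were found before 18 of 29 of these genes with a promoter in the table and before 2.79% of genes tested. Windows of 3 genes with the letters are printed (GRCr8; capitals mark the motif), as examples from the genes that hold it: Ifit3 at chr1:241527262-241527311, plus strand, Irf7 at chr1:205800063-205800112, minus strand, and Parp14 at chr11:78408038-78408087, plus strand.
Ifit3: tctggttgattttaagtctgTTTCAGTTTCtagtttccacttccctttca
Irf7: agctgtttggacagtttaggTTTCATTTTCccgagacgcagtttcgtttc
Parp14: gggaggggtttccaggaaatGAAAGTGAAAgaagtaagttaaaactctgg

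**Figure D4:**
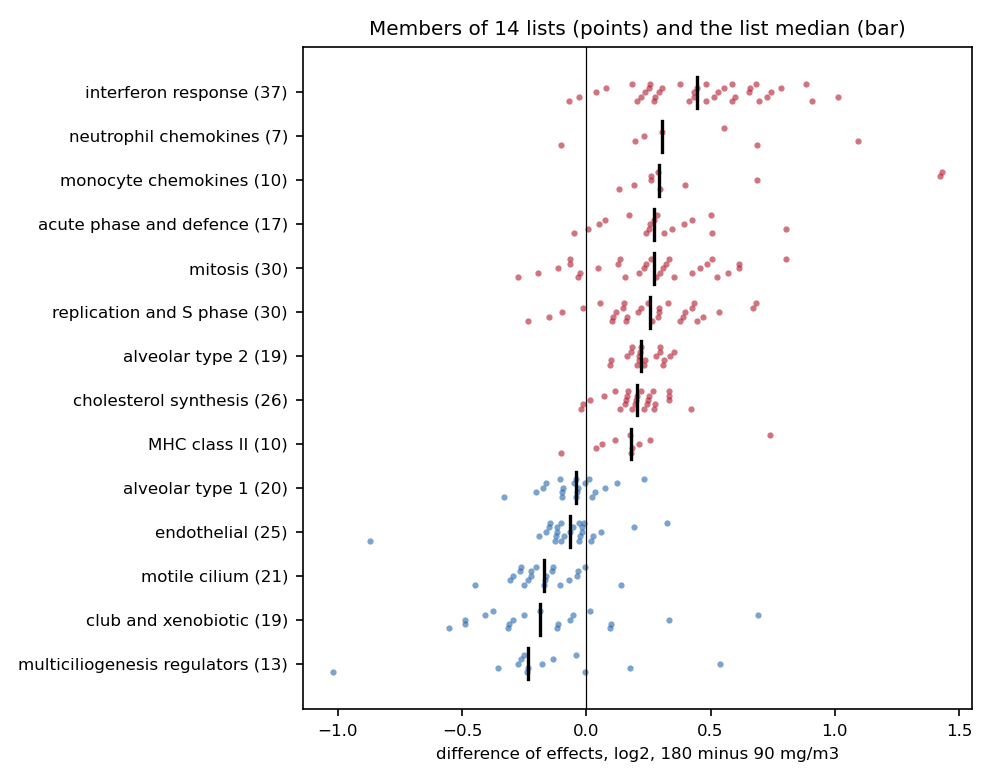
Difference of effects (log2, 180 minus 90 mg/m3, horizontal) of every tested member of 14 gene lists (points, with member numbers in brackets) and the list median (black bar). Among these 14 of the 50 lists, medians run from 0.44 for interferon response genes to -0.24 for multiciliogenesis regulators. The interferon median is 0.23 without air_090 replicate 6. Lists not drawn with lower medians are liver (-0.52), cardiac and skeletal muscle (-0.28), and B and plasma cell (-0.241).

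Alveolar type 2 genes rose mainly at 180 mg/m3 by count, although no gene of the list passed the test of the difference. All 19 tested genes had a positive difference (median 0.22), 12 rose at 180 mg/m3, and 2 rose and 1 fell at 90 mg/m3. In 9 of the 19 all MWCNT_180 libraries lay above all MWCNT_090 libraries, against 2.95% of all genes. The surfactant protein gene Sftpa1 was at 10644, 10231, 10716, 11237 and 10831 CPM in MWCNT_180, against 6229 to 8914 CPM in air_180, and at 6366, 8337, 8174 and 8558 CPM in MWCNT_090, against 5468 to 8234 CPM in air_090. It rose by 0.61 log2 at 180 mg/m3 (adjusted p = 4.2e-05) and had 0.26 at 90 mg/m3 (adjusted p = 0.105). The effect at 90 mg/m3 was called by limma voom (0.28, adjusted p = 0.0347) and without air_090 replicate 4 or MWCNT_090 replicate 1 (adjusted p = 0.0198 and 0.0318). The difference was 0.35 ± 0.14 (SE, adjusted p = 0.706). Sftpc did not pass at 180 mg/m3, but was called there by DESeq2 (0.21, adjusted p = 0.045) and limma voom (0.22, adjusted p = 0.0276). The summed list was 55840 to 61210 CPM in MWCNT_180, 41890 to 59280 in air_180, 39360 to 49910 in MWCNT_090 and 40550 to 55550 in air_090, so 1 air_180 rat lay within the range of MWCNT_180. The lung transcription factor gene Nkx2-1 rose by 0.24 at 180 mg/m3 and had 0.03 at 90 mg/m3.

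Many genes of multiciliated cells rose at both doses, with mostly negative differences of effects. Of 13 regulators of multiciliated cell formation, 9 rose at 180 mg/m3 and 10 at 90 mg/m3, and 2 had a positive difference (median -0.24). Of 21 motile cilium genes, 8 rose and 1 fell at 180 mg/m3, 12 rose and 1 fell at 90 mg/m3, and 1 had a positive difference (median -0.17). The summed cilium list was 1500 to 1781 CPM in MWCNT_180, within the 1419 to 1944 of air_180. It was 1711 to 1893 in MWCNT_090 and 1546 to 1807 in air_090. The summed regulators were 217.3 to 250.9 CPM in MWCNT_180, 138.4 to 180.2 in air_180, 256.9 to 291.9 in MWCNT_090 and 144 to 179.5 in air_090. Mcidas, a switch for multiciliated cell formation, was at 2.48, 2.97, 2.08, 2.04 and 3.03 CPM in MWCNT_180, against 0.197 to 0.860 CPM in air_180, and at 3.57, 2.69, 2.56 and 2.15 CPM in MWCNT_090, against 0.174 to 0.299 CPM in air_090. The exposed groups overlapped, and the difference of effects of -1.02 ± 0.41 log2 (SE, adjusted p = 0.708) came with an air difference of 0.90. Ccno, needed for centriole amplification, was at 14.7 to 20.2 CPM in MWCNT_180 and 20.6 to 24.5 CPM in MWCNT_090, with effects of 3.17 and 3.53. Foxj1, the master regulator of motile cilia, rose by 0.62 and 0.86. Drc1, a dynein regulator, had 0.15 at 180 mg/m3, which did not pass, and rose by 0.44 at 90 mg/m3, and the difference of -0.29 ± 0.17 had an adjusted p of 0.829. Its call at 90 mg/m3 was lost in the 53-library model (adjusted p = 0.057) and without air_090 replicate 2 or MWCNT_090 replicates 1 or 2 (adjusted p from 0.0508 to 0.0833).

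Several club cell genes fell at both doses. The club cell P450 gene Cyp4b1 was at 320, 326, 328, 288 and 288 CPM in MWCNT_180, against 556 to 687 CPM in air_180, and at 380, 388, 374 and 390 CPM in MWCNT_090, against 571 to 658 CPM in air_090. The effects were -0.98 and -0.68 log2, and the difference was -0.29 ± 0.08 (SE, adjusted p = 0.517). Scgb1a1, the main club cell secretory protein, fell by 0.77 and 0.58, with a difference of -0.19 (95% interval -0.48 to 0.11). Of the 19 club and xenobiotic genes, 1 rose and 9 fell at 180 mg/m3, and 1 rose and 4 fell at 90 mg/m3. Of the 19, 5 had a positive difference (median -0.19). The goblet cell mucin gene Muc5ac was at 0.102 to 1.17 CPM in MWCNT_180 and 0.358 to 1.74 CPM in MWCNT_090, and 5 of the 6 air_090 libraries had 0 counts of it, so no fold is given. Of 17 goblet and ion transport genes, 8 rose at 180 mg/m3 and 6 at 90 mg/m3, and 0 fell at either dose. In this list 5 differences were positive and 12 negative (median -0.06). Slc26a4, the anion exchanger pendrin, was among those with a positive difference and rose by 3.34 and 2.15.

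Many alveolar type 1 and endothelial genes fell by small amounts at both doses. Of 20 alveolar type 1 genes, 12 fell at 180 mg/m3 and 6 at 90 mg/m3, with a median difference of -0.04, and the interval lay within 1.5-fold for 18. The caveolin gene Cav1 fell by 0.43 and 0.26. Of 25 endothelial genes, 18 fell at 180 mg/m3 and 12 at 90 mg/m3, with a median difference of -0.06 and an interval within 1.5-fold for 23, and in 6 all MWCNT_180 libraries lay below all MWCNT_090 libraries, against 2.28% of all genes. The endothelial receptor gene Tie1 fell by 0.31 and 0.16, the second of which was not called without air_090 replicates 1 or 5 or MWCNT_090 replicates 2, 3 or 4 (adjusted p from 0.0564 to 0.0953). Of 33 fibroblast and matrix genes, 7 rose and 7 fell at 180 mg/m3, and 6 rose and 3 fell at 90 mg/m3. The shares of all genes were 13.5% higher and 11.8% lower at 180 mg/m3, and 7.64% higher and 4.81% lower at 90 mg/m3. Fibronectin, Fn1, rose by 0.34 at 180 mg/m3 and had 0.10 at 90 mg/m3.

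Several stress and clock genes were called at 180 mg/m3 and not at 90 mg/m3, as were 2297 of the 15370 genes tested. Of 23 NRF2 and metallothionein genes, 7 rose and 1 fell at 180 mg/m3, and 5 rose and 1 fell at 90 mg/m3. Of 21 immediate early genes, 7 rose and 2 fell at 180 mg/m3, and 4 rose and 1 fell at 90 mg/m3. Among 18 clock genes, 5 rose and 4 fell at 180 mg/m3, and 0 rose and 2 fell at 90 mg/m3. Hmox1, haem oxygenase of the NRF2 response, was at 64.3, 55.0, 63.7, 73.7 and 58.1 CPM in MWCNT_180, against 33.4 to 51.5 CPM in air_180, and at 45.6, 54.8, 59.6 and 52.4 CPM in MWCNT_090, against 36.8 to 53.7 CPM in air_090. Its effects were 0.60 and 0.20 log2, with a difference of 0.39 ± 0.17 (SE, adjusted p = 0.737). Junb and Ier3, immediate early genes, rose by 0.91 and 0.80 at 180 mg/m3 and had 0.24 and 0.26 at 90 mg/m3. Nr4a3, a nuclear receptor of the same class, rose at both doses, by 2.32 and 1.49.

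The clock output gene Dbp rose at 180 mg/m3, by 1.40, with 12.1, 12.6, 17.9, 31.9 and 39.1 CPM in MWCNT_180, against 6.49 to 10.1 CPM in air_180. It was at 8.51 to 13.2 CPM in MWCNT_090, against 7.91 to 9.78 CPM in air_090, and 2 of the 5 MWCNT_180 rats, at 31.9 and 39.1 CPM, lay well above the other 3. Npas2, a clock transcription factor gene, fell by 0.62 and 0.29, and Bhlhe40, a clock repressor, rose by 0.42 at 180 mg/m3 and had 0.07 at 90 mg/m3. The stress gene Ddit4 fell by 1.12 at 180 mg/m3, with 21.9 to 49 CPM in MWCNT_180 and 30.4 to 119 CPM in air_180, and had 0.31 at 90 mg/m3. That fall was not called without MWCNT_180 replicate 5 or 6 (adjusted p = 0.0521 and 0.0573), which had the lowest levels among the MWCNT_180 rats, or with both air groups as a single control (adjusted p = 0.0739).

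The metallothionein gene Mt2A rose by 2.04 and 1.61. Cyp1a1, a target of the aryl hydrocarbon receptor, had 0.66 and 0.33, and neither passed, but the effect at 180 mg/m3 was called without MWCNT_180 replicate 4 (0.83, adjusted p = 0.018). Of 25 genes of fatty acid oxidation and PPAR signalling, 2 rose and 6 fell at 180 mg/m3, and 0 rose and 4 fell at 90 mg/m3. Among all genes, 13.5% rose and 11.8% fell at 180 mg/m3, and 7.64% rose and 4.81% fell at 90 mg/m3. Abcd2, a peroxisomal fatty acid transporter, fell by 1.40 and 0.89 log2, and the mitochondrial carrier gene Ucp3 by 1.35 and 0.81. Hpgd, which inactivates prostaglandins, fell by 0.54 at 180 mg/m3 and had -0.08 at 90 mg/m3, with an air difference of 0.32. The lipoxygenase gene Alox15 was at 7.10 to 10.3 CPM in MWCNT_180, against 29 to 38.5 CPM in air_180, and at 11.7 to 13.8 CPM in MWCNT_090, against 24.7 to 40.7 CPM in air_090, with a difference of -0.52 ± 0.16 log2 (adjusted p = 0.601).

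Lists with a median difference near 0 included ribosomal proteins (50 genes, -0.01), complex I of the respiratory chain (32 genes, -0.03), p53 targets (20 genes, -0.02) and inflammasome genes (12 genes, 0.08). No member of the 50 lists passed the test of the difference.

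**Figure D5:**
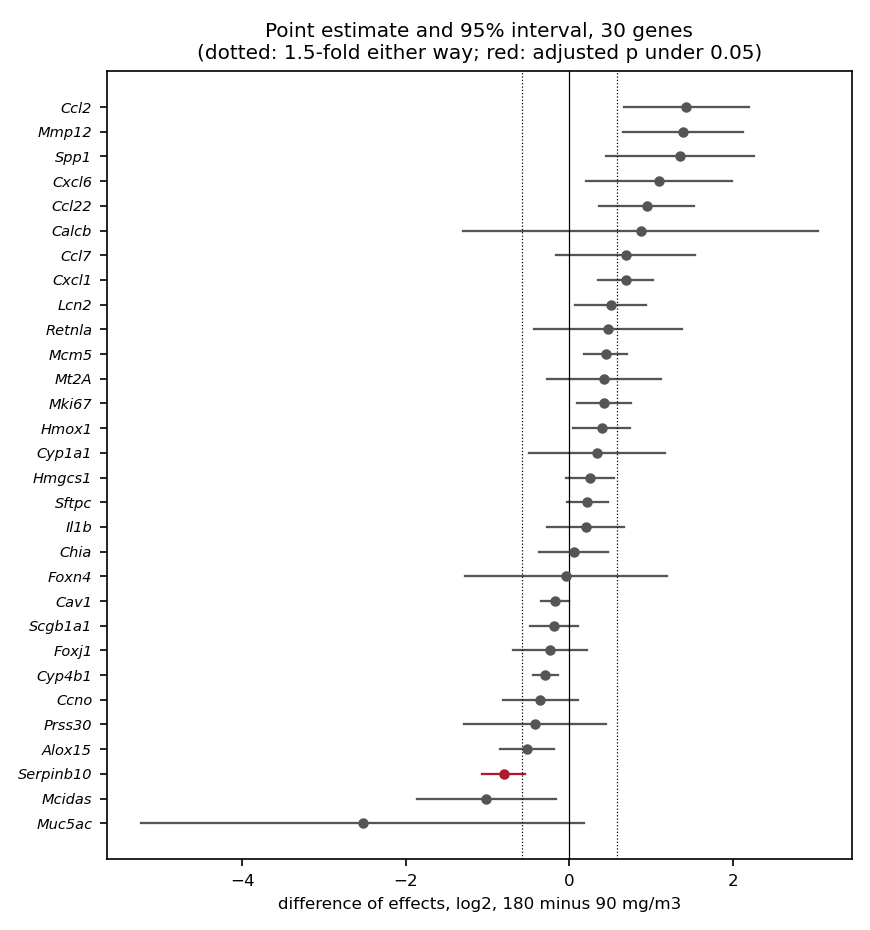
Difference of effects (log2, 180 minus 90 mg/m3) of 30 genes with 95% intervals (bars); dotted lines mark 1.5-fold either way. Serpinb10, in red, is the gene with an adjusted p under 0.05; the intervals of 15 genes exclude 0 before adjustment, 10 above and 5 below, and those of 6 lie within 1.5-fold.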

How the data were processed

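RNA from lung pieces of individual rats was made into stranded mRNA libraries with 12 PCR cycles, per the labels' protocols. The deposited table holds counts per gene, which the authors made with HTSeq 0.11.2 after Trimmomatic 0.35 and HISAT2 2.1.0, per the submitters' processing notes. The genome build is not given in the sources used here. Of 30045 genes, 15370 passed filterByExpr at a count minimum of 10, and these held 99.899% of the counts. A quasi-likelihood model of 4 groups was fitted to 21 libraries with edgeR 4.0.16 (R 4.3.3), TMM normalization and Benjamini-Hochberg adjustment at 0.05. The difference of effects is (MWCNT_180 minus air_180) minus (MWCNT_090 minus air_090), on the log2 scale. Levels are TMM-scaled CPM. The p-values measure the spread between rats of one run, and cages are not taken into account. Alternatives used DESeq2 1.42.0 and limma 3.58.1, other filters and normalizations, all 24 libraries, 53 libraries of 10 groups, both air groups as a single control, and each library left out in turn. Named genes are those called, up to 4 of each list by smallest p, the 6 called with the smallest p and 30 fixed genes. Genes called between the exposed or the air groups, and those called by other tools, were named after their values were seen. The lists, genes and comparison were chosen with earlier results of these data known. Promoters are from RefSeq (GRCr8), matched by symbol, with 10485 tested genes matched.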

Additional observations from a re-analysis of the deposited data

Results flagged for a closer look

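Among 124 pairs of a gene or depth measure and a group, 11 libraries lay far from the rest of their group by Dixon's 95% critical value, which chance alone passes in about 1 in 20 groups. Ccl7 was at 2.62 CPM in air_180 replicate 1, with 0.412 to 1.17 CPM in the other 5. Ccl22 was at 6.76 CPM in MWCNT_090 replicate 4, with 6.18 to 6.23 CPM in the other 3. Cxcl6 was at 17.4 CPM in MWCNT_090 replicate 3, with 12.3 to 12.4 CPM in the others. Il1b was at 33.7 CPM in air_180 replicate 3, with 19.3 to 23.3 CPM in the others. Spp1 was low in MWCNT_090 replicate 1, at 57.0 CPM with 73.3 to 75.5 CPM in the others, and high in air_090 replicate 3, at 16 CPM with 4.26 to 8.15 CPM in the others. Cyp1a1 was at 8.57 CPM in MWCNT_180 replicate 5, with 2.29 to 4.03 CPM in the others. Muc5ac was at 0.0998 CPM in air_090 replicate 1 and at 0 in the other 5. Sftpc was at 11900 CPM in air_090 replicate 4, with 8410 to 9570 CPM in the others. Serpinb10 was at 37 CPM in air_180 replicate 5, with 30.5 to 32.5 CPM in the others. MWCNT_180 replicate 2 had a total count of 8.10, with 9.40 to 9.92 in the others, in units of 1000000.

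The effects at the 2 doses differed for Serpinb10, by -0.81 log2 in the test of the difference itself. In the libraries left out, liver genes took 26.35% and 28.04% of the counts in MWCNT_090 replicates 5 and 6 and 0.2084% in MWCNT_180 replicate 1, with at most 0.0644% in the air libraries used.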

How the results depend on the processing

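The count of genes with a difference of effects was 0 in the 53 libraries of 10 groups (892 at an unadjusted p under 0.05), 0 in all 24 libraries (2526), 4 with DESeq2, 5 with limma voom, 20 with both air groups as a single control, and 0 to 4 with 1 library left out. Without the 3 libraries with most liver RNA, an alternative chosen after seeing the data, it was 0 (1082 at an unadjusted p under 0.05). Over these alternatives the Serpinb10 difference ran from -0.86 to -0.32, with adjusted p from 5.4e-05 to 0.75. Ignoring the outlier labels (24 libraries) gave 406 calls at 180 mg/m3, 3037 at 90 mg/m3 and 1753 between the exposed groups, and put 7.25% of called genes within 1.5-fold. It reversed the effect at 90 mg/m3 of Itgax (-0.030), Cidec (5.98), Drc1 (-0.037), Pla2g1b (-0.27), Stat2 (0.83) and LOC310926 (0.32). Limma voom gave 2938 calls at 90 mg/m3 and 206 between the exposed groups, and DESeq2 gave 174 there. Calls between the air groups numbered 0 in 53 and in 24 libraries, 19 with DESeq2, 2 with limma voom and 1 without the 3 libraries. With 1 library left out, calls ran from 3319 to 4067 at 180 mg/m3, 1404 to 2060 at 90 mg/m3, 2 to 6 between the air groups and 3 to 64 between the exposed groups (3 without MWCNT_090 replicate 1, 64 without air_180 replicate 6). The cause was not tested. Among 3082 values per comparison for the genes named, 67 lost and 13 gained a call at 180 mg/m3, and 92 lost, 25 gained and 6 reversed at 90 mg/m3. For the difference of effects 10 lost a call, all of Serpinb10, 26 gained one and 0 reversed. No paired analysis was possible because each library came from a different rat, and no label pairs rats across groups. Each group had 4 to 6 rats, and the part of rat number and depth in the width of the intervals was not tested. For the 459 genes called and over 2-fold at either dose, 26 intervals of the difference lay within 1.5-fold either way.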
